A study of Mus musculus with 15 samples.

Results

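The peaks described here lie at Neurod1 and Cerkl, neighbouring genes on mouse chromosome 2. They are the 9 rows that the authors assigned to either gene (6 to Cerkl, gene ID 228094, and 3 to Neurod1, gene ID 18012) among the 8996 peak rows of the quantitation table. NRL occupancy was measured by CUT&RUN, an assay that brings a nuclease to antibody-bound protein in permeabilised cells and sequences the DNA released around it. Whole retinas of C57BL/6J mice were dissociated on postnatal day 2, 4, 10 or 28 (written P2 to P28), and every library was made with an anti-NRL antibody, with no further genotype or treatment named. The table analysed here holds 8 libraries, 2 at each age (replicates 3 and 4 at P2, P4 and P28, replicates 1 and 4 at P10). Age is the only factor that the labels name as differing between groups. The rows were selected on the authors' peak calls, each at 1 or more ages from libraries of this study, so the direction of a difference between ages was partly fixed by the choice of rows. Values per library are therefore the result, and the adjusted p-values beside them are not independent of that choice. In whole retina, a higher share of cells with NRL at a site and more NRL at the site in each cell cannot be told apart.

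NRL is a Maf-family basic leucine zipper transcription factor that is required for rod photoreceptors to form, and it acts at many sites together with the homeodomain factor CRX. NEUROD1 is a basic helix-loop-helix (bHLH) factor that binds E-boxes as a dimer with an E protein; in the retina it takes part in the development of photoreceptors and amacrine cells and in the survival of photoreceptors. CERKL resembles ceramide kinase, the enzyme that phosphorylates the lipid ceramide, and loss of CERKL causes retinitis pigmentosa and cone-rod dystrophy in people.

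The 9 peaks were named A to I in the order of their coordinates (GRCm38.p6, counted from 1), and both genes are transcribed from the high coordinates towards the low ones. Peak H, at chr2:79456572-79457015, covers the start of Neurod1 in the authors' annotation (position 79456751). It also covers the start of the longest Cerkl transcript of that annotation, which lies 34 bp further upstream, at 79456785. Peak G (chr2:79455051-79455337) lies inside the Neurod1 transcription unit, 1.4 kb downstream of its start, and peak F (chr2:79447901-79448031) lies 8.7 kb downstream, beyond the 3′ end of Neurod1. The authors assigned F and G to Neurod1, and their annotation places both in intron 1 of 10 of that longest Cerkl transcript. In RefSeq, Cerkl starts at 79428988 and neither F, G nor H lies within it.

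Peaks A to E lie inside Cerkl. Peak E (chr2:79421729-79421917), peak D (chr2:79410312-79410799) and peak C (chr2:79399581-79399983) are annotated to intron 1 of 12, at 34.8, 46.0 and 56.8 kb downstream of the Neurod1 start. Peak B (chr2:79391005-79391311) falls in exon 1 of 2 of a short Cerkl transcript at 65.4 kb, and peak A (chr2:79363980-79364196) in intron 3 of 12 at 92.6 kb. Peak I (chr2:79499339-79499632) is intergenic, at -42.6 kb, upstream of both genes; its assignment to Cerkl rests on the 34 bp between the 2 annotated starts. The nearest peak to the RefSeq start of Cerkl is E, 7071 bp downstream, and no row of the table overlaps the RefSeq promoter window of Cerkl.

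Part of the promoter sequence under peak H is shown because H is the 1 peak of the locus that was called at all 4 ages. Both genes were matched to the RefSeq promoter table (GRCm38.p6), which gives 300 bases around each RefSeq start. The stretches below are on the strand of Neurod1, 5′ to 3′. The first ends next to the longest Cerkl transcript's start and holds the summits of peak H at P2, P4 and P10, with its E-box in capitals. The second lies downstream of the start in the authors' annotation, with 2 Maf arms in capitals, TGCTGA read as TCAGCA on this strand.
chr2:79456786-79456886: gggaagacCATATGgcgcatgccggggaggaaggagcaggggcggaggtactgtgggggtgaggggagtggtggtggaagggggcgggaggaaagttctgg
chr2:79456666-79456695: cgcccgcgcTCAGCATCAGCAactcggcta

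Motifs were searched on both strands of the 300 bases. They were TGCTGA, which is 1 arm of the Maf site, the AP-1 core TGANTCA, the full Maf site, in which TGCTGA and its reverse complement flank 1 free base and overlap an AP-1 core, the CRX motif TAATCC, the E-box CANNTG, and CAGATG, which is the E-box form associated with NEUROD factors. The Neurod1 window held 2 Maf arms that abut each other, beginning 50 and 44 bases before the RefSeq start, and 1 E-box. It held none of the other 4 motifs. This window spans chr2:79456587-79456886, and the parts of peak H beyond its 2 ends were not searched. A Maf arm occurred in 19.5% of all 32851 promoter windows and in 16.1% of the 4796 windows that overlap a row of the table; a window with 2 abutting arms in this orientation occurred 6 times (0.0183%). An E-box occurred in 72.3% of all windows, TGANTCA in 7.81%, TAATCC in 7.06%, CAGATG in 17.2% and the full Maf site in 0.00609%. The Cerkl window held none of the 6 motifs. G and C made up 66.7% of the Neurod1 window and 53.3% of the Cerkl window, against a median of 52.7%. The summit of peak H lay 133, 88, 101 and 19 bp upstream of the authors' Neurod1 start at P2, P4, P10 and P28, which is 198, 153, 166 and 84 bp upstream of the paired arms. A match describes letters only and is not evidence of binding to them.

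Depth was low throughout. Reads inside all peaks ranged from 49430 to 227692 per library, and 47 to 258 of them fell in the 9 peaks of the locus. Values are RPKM, reads divided by the length of the peak and by the authors' scale for the library, and 3 reads at the median peak width correspond to 1.16 to 1.77 RPKM. The median over all rows was 2.24 and 2.09 RPKM (P2), 2.52 and 4.48 (P4), 6.29 and 6.09 (P10) and 3.81 and 3.66 (P28), so the libraries differed in level over all peaks as well as in this locus. P4 replicate 4 exceeded replicate 3 at 83.9% of all rows and at all 9 peaks of the locus. Of the marker genes set for the tissue, 10 of 10 for rods had a row within 50 kb, against 0 of 8 for Müller glia and 0 of 7 for microglia and vessels. Among all protein-coding genes the share was 27.3%. A row near a gene does not show which cells were in a sample. No label ties a replicate to an animal of its own, so p-values measure only the spread between these libraries, which may be technical. Intervals given for reads and shares cover counting error only.

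In the authors' peak lists, only the Neurod1 promoter was called at P2, and the whole locus was called only in the P10 list. Peak H was in all 4 lists. It was the 1 peak of the locus in the P2 list. Peak C, in the first Cerkl intron, was not in that list but held as much signal at P2. Its mean was 4.31 RPKM, against 4.27 for H, so the P2 list does not order these 2 peaks in time. Peaks C, D and I were called as well at P4, all 9 at P10, and C, H and I at P28. Lists differ in length (1221, 3161, 7520 and 3482 peaks in order of age), and 13.5, 35.0, 83.2 and 38.6% of all rows were present in them. Peaks A, B, E, F and G were called only at P10, as were 41.9% of all rows. Presence in a list helped choose these rows and each age has 1 list, so no test was made.

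**Figure D1:**
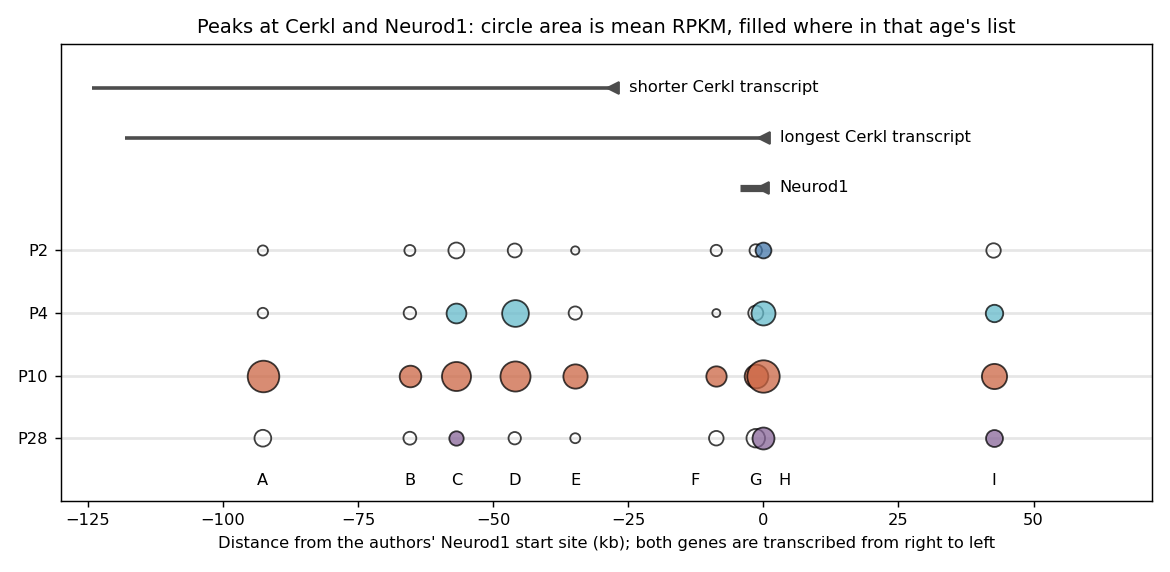
Position of the 9 peaks, as distance in kb from the Neurod1 start in the authors' annotation (x axis), with the extents of Neurod1 and of 2 Cerkl transcripts above and 1 row of circles per age. Circle area is the mean RPKM of 2 libraries and a filled circle is a peak in that age's list; peak H is filled at all 4 ages and all 9 circles are filled at P10.

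Rank by the authors' own peak signal, which has no error attached, separated the promoter from the intronic peak D. Peak H ranked 1108 of 1221 at P2, 1052 of 3161 at P4, 1467 of 7520 at P10 and 1422 of 3482 at P28. Peak D ranked higher than H in the lists that held both, at 389 of 3161 at P4 and 650 of 7520 at P10, and was in neither the P2 nor the P28 list. By RPKM, D stood at 0.814 and 1.41 times H at P4 (replicates 3 and 4). It stood at 0.926 and 0.784 times H at P10 (replicates 1 and 4). Peak A ranked 1001 at P10, while G, inside Neurod1, ranked 6963 of 7520. When every list was cut to its 1221 strongest peaks, the locus kept H at P2, D and H at P4, A and D at P10, and no peak at P28. At that length, 13.5% of all rows were present at P2 and 13.6% at each later age. Order by RPKM differed from this order by signal. By RPKM, peak H lay at the 92.5th and 88.3rd percentile of all rows in the P28 libraries. In the P10 libraries it lay at the 89.5th and 87.2nd.

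At the Neurod1 promoter, peak H held 3.40 and 5.14 RPKM (P2), 5.43 and 14.2 (P4), 19.5 and 16.3 (P10) and 9.07 and 7.37 (P28), with the lower-numbered replicate first here and below. Both P10 libraries lay above all others, and both P28 libraries lay above both P2 libraries and between the 2 of P4. The means over these pairs were 4.27 ± 1.23 (SD, n = 2), 9.79 ± 6.16, 17.9 ± 2.28 and 8.22 ± 1.20, in order of age. Peak H was the peak of the locus that stayed high relative to the rest of each library, between 1.52 and 3.16 times the median of all rows in every library and between the 72.8th and the 92.5th percentile.

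Inside Neurod1, peak G followed with lower values. It held 1.32 and 3.98 RPKM (P2), 2.21 and 5.47 (P4), 10.4 and 8.69 (P10) and 4.86 and 6.85 (P28). Its P10 libraries lay above all others, and its P28 libraries above those of P2. Peak F, the narrowest of the 9 at 131 bp, rested on few reads: 0 and 3 (P2), 0 and 2 (P4), 7 and 6 (P10) and 4 and 2 (P28). These correspond to 0 and 4.36 RPKM (P2), 0 and 2.18 (P4), 8.42 and 5.71 (P10) and 4.73 and 2.50 (P28).

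In the first intron of Cerkl, the 2 libraries of P4 stood far apart, as they also did at peaks G, H and I. Peak D, the widest peak at 488 bp, held 1.55 and 5.07 RPKM (P2), 4.42 and 19.9 (P4), 18.1 and 12.8 (P10) and 2.22 and 3.02 (P28). P4 replicate 4 was its highest library and exceeded both P10 libraries, whereas P4 replicate 3 lay below P2 replicate 4, so P4 overlapped both neighbouring ages. At P28 peak D stood at 0.583 and 0.825 times the library median, against 2.88 and 2.10 times at P10. Peak C held 4.38 and 4.25 RPKM (P2), 3.47 and 9.92 (P4), 16.4 and 12.4 (P10) and 4.23 and 2.84 (P28), and its P28 libraries were the only pair of the locus to lie wholly below P2. Peak E held 1.33 and 1.01 RPKM (P2), 0.672 and 5.29 (P4), 10.8 and 9.24 (P10) and 1.64 and 1.73 (P28). Apart from P10 and P4 replicate 4, its values rested on 1 or 2 reads.

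Further into Cerkl, peak A held 1.74 and 1.75 RPKM (P2), 1.76 and 1.97 (P4), 22.5 and 11.5 (P10) and 4.28 and 5.28 (P28). The values of P2 and P4 rested on 2 or 3 reads each, and P10 replicate 1, with 31 reads, was the highest value of the locus in any library. Peak B held 1.64 and 2.48 RPKM (P2), 2.48 and 2.79 (P4), 8.21 and 7.72 (P10) and 3.53 and 2.13 (P28). Upstream of both genes, peak I held 1.29 and 5.82 RPKM (P2), 2.59 and 7.77 (P4), 10.2 and 11.5 (P10) and 4.21 and 5.57 (P28). All 9 peaks had both P28 libraries below both P10 libraries. Across the 8 libraries, which share their scale among peaks, pairs of peaks correlated on the log2 scale with Pearson r from 0.49 (A with D) to 0.95 (C with E).

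**Figure D2:**
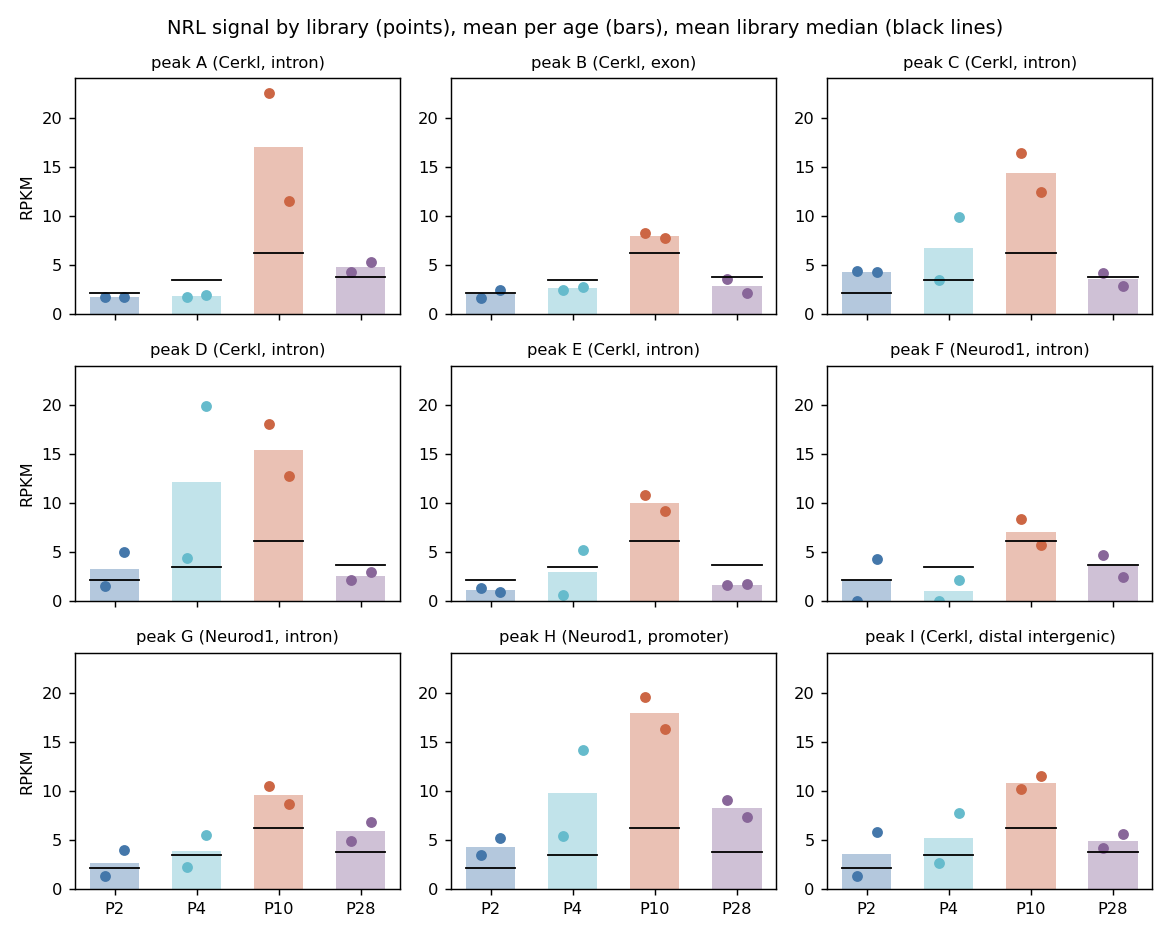
RPKM of each of the 9 peaks in each of the 8 libraries (points, coloured by age) with the mean of the 2 libraries of an age as a bar and the mean of their medians over all rows as a black line. Both P10 points lie above all others at 8 of the 9 peaks, and P4 replicate 4 is the highest point of peak D at 19.9 RPKM.

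The first step, P4 against P2, asked whether occupancy of the locus differed between the earliest ages. No peak passed the test, which was limma on log2(RPKM + 1) over all 8996 rows with Benjamini-Hochberg adjustment and a threshold of 0.05, and it called 0% of all rows in either direction. Differences are on this scale, which understates changes of weak peaks, and the adjusted p-values of this and the next 3 comparisons are from the same limma fit. Peak D had a difference of 1.44 ± 0.61 (SE, adjusted p = 0.28) and was the 1 peak with an unadjusted p under 0.05 (0.026). Peak H had a difference of 0.92 ± 0.55 (adjusted p = 0.42). Limma-voom on the recovered reads also called none of the 9, beside 0.4% of all rows. P4 libraries lay wholly above P2 at A, B and H, 3 of 9, as did 40.1% of all rows, and wholly below at none, beside 3.91%. Without P4 replicate 3, D and H passed (2.41 and 1.54, adjusted p = 0.027 and 0.044), as did 9.29% of all rows, and without P4 replicate 4 neither did (0.46 and 0.31) and 0% of all rows passed. The median over the 9 peaks was 0.43, against 0.48 over all rows.

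From P4 to P10, 3 of the 9 peaks passed the test, all higher at P10, beside 15.6% of all rows called higher and 1.51% lower. Peak A, deep in Cerkl, rose by 2.58 ± 0.49 (adjusted p = 0.0019), from 6 reads to 51. Peak F, beyond the 3′ end of Neurod1, rose by 2.16 ± 0.66 (adjusted p = 0.032), and peak E, in the first Cerkl intron, rose by 1.76 ± 0.52 (adjusted p = 0.024). Peak F rests on 2 reads at P4 and 13 at P10, a ratio of 6.73 with a 95% counting interval of 1.53 to 61.5. The remaining peaks had differences of 1.30 (B, adjusted p = 0.053), 1.21 (G, 0.11), 1.13 (C, 0.14), 1.07 (I, 0.18), 0.93 (H, 0.23) and 0.61 (D, 0.47). All peaks but D had both P10 libraries above both P4 libraries, 8 of 9 beside 58.9% of all rows, and none the reverse, beside 6.31%. The median difference was 1.21, against 0.73 over all rows.

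The P10 calls depended on single libraries. Peak A missed the threshold without P10 replicate 1 (2.13, adjusted p = 0.060). E and F missed it without P4 replicate 3 (adjusted p = 0.37 and 0.42), without P10 replicate 1 (0.16 and 0.16) or without P10 replicate 4 (0.092 and 0.061). Over all rows, 17.1% passed in either direction with all libraries, and 2.39, 2.46 and 4.31% without these 3 in turn. Without P4 replicate 4, all 9 peaks passed, as did 33.8% of all rows. When each library was centred on its median over all rows, A alone passed (1.87, adjusted p = 0.016), beside 6.14% of all rows, and the difference of D turned to -0.10.

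Between P10 and P28, 4 of the 9 peaks passed the test, all lower at P28 and all inside Cerkl. Over all rows, 20.7% were called lower and 1.29% higher. All 9 peaks of the locus had negative differences. Peak D fell by 2.17 ± 0.61 (adjusted p = 0.014), peak E fell by 2.04 ± 0.52 (adjusted p = 0.0087), peak C fell by 1.77 ± 0.54 (adjusted p = 0.022) and peak A fell by 1.57 ± 0.49 (adjusted p = 0.025). In reads, D went from 106 in the 2 P10 libraries to 16 at P28, a level 5.80-fold lower after scaling (95% counting interval 3.41 to 10.5). The 3 peaks assigned to Neurod1 did not pass: H had a difference of -1.04 ± 0.55 (adjusted p = 0.18), F of -0.83 (0.37) and G of -0.64 (0.40). Peak B had -1.25 (adjusted p = 0.055) and I -1.01 (0.20). Whether the Cerkl peaks differed from the Neurod1 peaks in this step was not tested. Both P28 libraries lay below both P10 libraries at 9 of 9 peaks, beside 61.7% of all rows (10.1% had the reverse), and the median difference was -1.25, against -0.69 over all rows.

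These calls also rested on single libraries and on scale. Without P10 replicate 1 none of the 4 passed (adjusted p from 0.074 for E to 0.30 for A), with differences of -1.93 for E, -1.94 for D, -1.58 for C and -1.12 for A. Calls over all rows, in either direction, went from 21.9% to 5.64% in that setting. Peaks A and E passed without P10 replicate 4, beside 7.50% of all rows. E alone passed without P28 replicate 3, and D and E without P28 replicate 4, each beside 12.8% of all rows. With each library centred on its median, E alone passed (-1.43, adjusted p = 0.0495), beside 12.8% of all rows, while D had -1.57 (adjusted p = 0.058), C -1.17 (0.060), A -0.97 (0.13) and G -0.03.

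**Figure D3:**
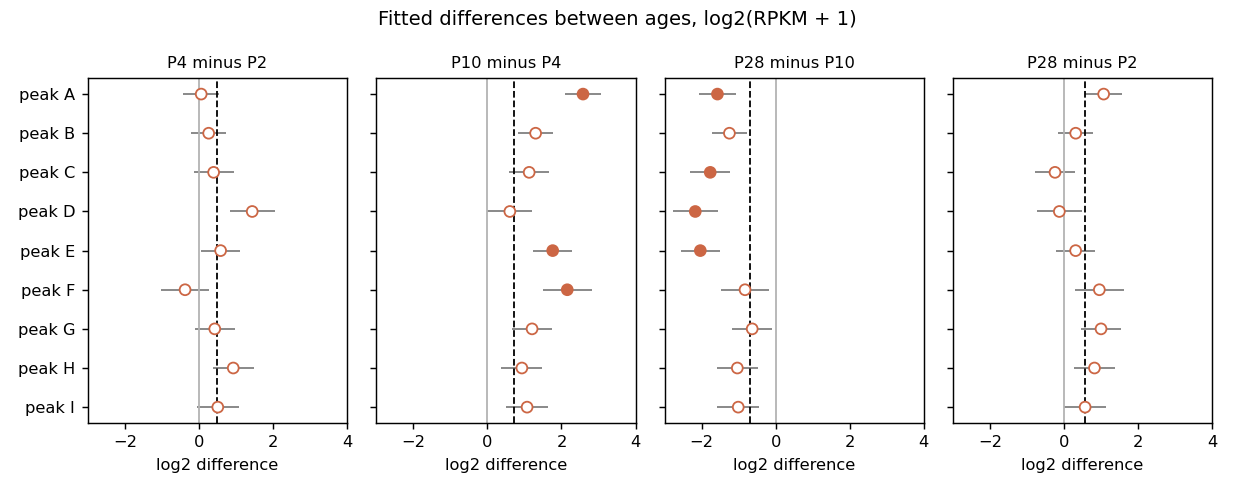
Differences between successive ages and between P28 and P2 for each peak, on the scale log2(RPKM + 1), as points with bars of 1 SE; filled points passed the limma threshold and the dashed line in each panel is the median over all rows. Filled points are A, E and F for P10 minus P4 and A, C, D and E for P28 minus P10, with none for P4 minus P2 or P28 minus P2.

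Over the whole interval, P28 against P2, no peak of the locus passed the test, beside 9.64% of all rows called higher. The differences were 1.07 ± 0.49 for A (adjusted p = 0.14), 1.00 ± 0.53 for G (0.20) and 0.82 ± 0.55 for H (0.31). At peaks C and D the differences were -0.24 and -0.13 (adjusted p = 0.77 and 0.90). Peak A was the 1 peak with an unadjusted p under 0.05 (0.039), and limma-voom called none of the 9, beside 9.86% of all rows. P28 libraries lay wholly above those of P2 at A, E, G and H, 4 of 9 beside 52.5% of all rows, and wholly below at C, beside 11.8%. Without P2 replicate 4, which holds all 3 of the P2 reads of F, peak F passed (2.16, adjusted p = 0.019), beside 6.71% of all rows, against 0 reads in the other P2 library, so this size depends on the pseudocount. The median difference was 0.57 in the locus and 0.57 over all rows.

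Shares of the locus reads do not depend on the scale of a library. The 3 peaks assigned to Neurod1 took 31.9 and 35.6% of the reads in the 9 peaks (P2), 35.3 and 30.8% (P4), 31.4 and 33.1% (P10) and 48.8 and 46.6% (P28). The 6 libraries up to P10 thus spanned 30.8 to 35.6% and both P28 libraries lay above them. The means were 33.8 ± 2.60% (SD, n = 2), 33.1 ± 3.17%, 32.2 ± 1.18% and 47.7 ± 1.54%, in order of age. Exact 95% binomial intervals were 37.4 to 60.2% and 34.8 to 58.6% for the P28 libraries and 25.8 to 37.4% and 27.3 to 39.2% for the P10 libraries, so the intervals of the P28 libraries overlapped those of the P10 libraries. The pooling by gene was chosen after the values were seen, and an exact test of 2 libraries against 2 cannot go below p = 0.33. Per kilobase of peak, the P28 and P10 means were 46.5 and 31.4%.

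Peaks A to E took the complement apart from peak I, at 58.8 ± 3.49% of the reads at P10 and 40.5 ± 1.08% at P28. Peak D took 12.8 and 22.0% of the locus reads at P2, 21.7 and 19.7% at P10 and 8.75 and 12.3% at P28. Per kilobase of peak, the means went from 58.5 to 40.6% for A to E and from 13.9 to 6.91% for D. Its highest share was 36.8% in P4 replicate 4 (exact 95% interval 29.8 to 44.1). Peak H took 21.3 and 22.8% at P10 and 32.5 and 27.4% at P28. The ratio of the RPKM of D to that of H was 0.455 and 0.986 (P2), 0.814 and 1.41 (P4), 0.926 and 0.784 (P10) and 0.245 and 0.409 (P28). Both P28 libraries lay below the other 6, but the nearest 2 values were close and rested on few reads. These were 9 reads in D and 20 in H for P28 replicate 4, and 6 and 12 for P2 replicate 3. No interval was computed for the ratio.

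**Figure D4:**
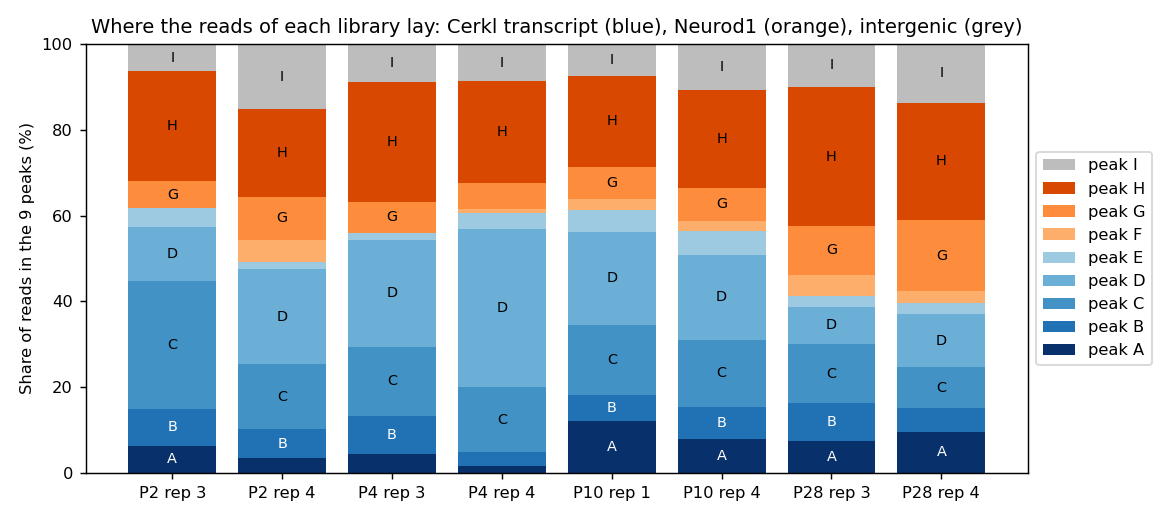
Share of the reads in the 9 peaks (percent, y axis) that lay in each peak, 1 stacked bar per library, with the peaks in Cerkl in blue, those assigned to Neurod1 in orange and intergenic peak I in grey. The orange part spans 30.8 to 35.6% in the 6 libraries from P2 to P10 and is 48.8 and 46.6% in the 2 libraries of P28.

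The locus was dense in peaks. Its 9 rows span 135653 bp and cover 2760 bp of it, and 75 of the 8996 rows (0.834%) open a stretch of that length with 9 or more rows. Cerkl, with 6 rows, is among 27 of 6860 genes (0.394%) with 6 or more, while the median gene had 1. The nearest rows on the left belong to Ube2e3, which encodes a ubiquitin-conjugating enzyme, 767 kb away, and to Gm14461 and Zfp385b beyond it. On the right they belong to Itprid2 (136 and 139 kb), Dnajc10 (816 kb), which encodes a chaperone of the endoplasmic reticulum, and Nup35 (1139 kb), which encodes a nuclear pore protein. Itga4, an integrin gene that overlaps the 3′ end of Cerkl, had no row. Of these neighbours, Zfp385b had a mean of 15.2 RPKM at P10 and 3.46 at P28, a difference of -1.99 (limma, adjusted p = 0.019). The second row of Itprid2 rose from P4 to P10 by 1.88 (limma, adjusted p = 0.015). Weaker rows passed as well: Ube2e3 had 0.804 and 0 RPKM at P4 against 2.99 and 1.97 at P10 (1.36, limma adjusted p = 0.042), and Gm14461 had means of 0.725 at P2 and 4.03 at P28 (1.54, limma adjusted p = 0.035).

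The rows most like the strongest peak of each gene were ranked by Pearson r over the 8 libraries, among 3105 other protein-coding genes. For peak H these were Slc25a12 (r = 0.997), which encodes a mitochondrial aspartate-glutamate carrier, Cfap61 (0.995), a cilia gene, Zranb1 (0.994), Bub3 (0.992), a mitotic checkpoint gene, and Rorb (0.991), a nuclear receptor gene needed for rods. For peak D they were Nap1l5 (0.986), Snrnp40 (0.984), Btg1 (0.983), Exosc6 (0.981) and Axin1 (0.981). All libraries share their scale across rows: the median r of all candidates was 0.793 with H and 0.656 with D, and 20.6 and 5.96% of candidates exceeded 0.9.

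Rows of other genes related to NEUROD1 were read at each gene's strongest peak within 50 kb. Of 27 bHLH neurogenic factors and partners, 11 had a row, against 27.3% of 21896 protein-coding genes. From P4 to P10, 0 of the 11 were called higher and 1 lower (limma), beside 12.6 and 0.753% of all genes with a row. The 1 gene was Tcf12, an E protein gene, with means of 5.59 and 0.685 RPKM (adjusted p = 0.013). From P10 to P28, genes called lower (limma), beside 17.5% of all genes with a row, included Tcf3, an E protein gene (9.48 to 1.70 RPKM, adjusted p = 0.016), and Id3, which encodes an inhibitor of bHLH factors (18.3 to 4.83, adjusted p = 0.031). The median of the 11 was 0.17 in the first step and -1.04 in the second, against 0.70 and -0.59 over all genes with a row, and Neurod1 stood at 0.93 and -1.04.

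Of 21 photoreceptor transcription factors, which again include Neurod1, 14 had a row, against 27.3% of protein-coding genes. Esrrb, Mef2d and Samd11 were called higher at P10 than at P4 and Tbx2 lower (limma), beside 12.6 and 0.753% of all genes with a row. Casz1, Nr2e3, Samd11 and Samd7 were called lower at P28 than at P10 (limma), beside 17.5% of all genes with a row. Samd7, which encodes a rod polycomb protein, had means of 190.5 RPKM at P10 and 37.6 at P28, and Nr2e3, which represses cone genes in rods, 39.4 and 7.59. The medians of the list were 1.39 and -1.04, against 0.70 and -0.59 over all genes with a row.

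For Cerkl, 12 of 24 genes of ceramide and sphingoid lipid enzymes had a row, against 27.3% of protein-coding genes. Cerk, the ceramide kinase gene, was called higher at P10 than at P4 (2.88 to 9.80 RPKM, limma adjusted p = 0.034), as was Smpd1, the acid sphingomyelinase gene (3.59 to 11.1, adjusted p = 0.049). These were 2 of the 12, beside 12.6% of all genes with a row. Cerkl itself, read at peak D, Cers2, Sgms1 and Sptlc2 were called lower at P28 than at P10, beside 17.5% of all genes with a row. Sptlc2, which encodes a subunit of the first enzyme of sphingolipid synthesis, had means of 57.6 and 8.96 RPKM. The medians were 1.15 and -1.04, against 0.70 and -0.59 over all genes with a row. Of 30 inherited retinal dystrophy genes, 21 had a row. Crb1, Prom1, Reep6 and Tulp1 were called higher at P10 than at P4, beside 12.6% of all genes with a row. Genes called lower at P28 than at P10, beside 17.5% of all genes with a row, included Cdhr1, Cerkl, Mak, Rpgrip1 and Tulp1. The medians of this list were 1.21 and -0.93. Over P28 against P2, 6 genes of that list were called higher and 1 lower (limma), beside 9.59 and 2.14% of all genes with a row; Cerkl was not among them.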

How the data were processed

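Anti-NRL CUT&RUN was done on dissociated retinas, per the labels' protocols. Bowtie2 2.3.5.1, MACS2 2.2.5, Picard 2.20.8, SAMtools 1.9, bedtools 2.29.0, Trimmomatic 0.38 and the builds GRCm38.p6 and ASM584v2 are named in the submitters' processing notes, without roles. The deposited quantitation table holds RPKM, as its values show, for 8 of the 15 labelled libraries; the other 7 were not analysed here. How the authors set the scale of a library is not stated in these sources. Each deposited RPKM equals whole reads over a width and over a constant of that library. From the second column on, the width is that of a row 39 rows earlier per column, so reads were rebuilt (100% whole within 0.001) and divided by their own width. The authors' peak lists give a signal and a score per peak, from which peaks were ranked inside 1 list at a time; which replicates were called for a list is not stated in these sources.

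Differences were tested with limma 3.58.1 (R 4.3.3; trend and robust empirical Bayes) on log2(RPKM + 1), with a pseudocount of 1, age as a factor, all 8 libraries (4 residual degrees of freedom) and no row filtered out. P-values were adjusted by Benjamini-Hochberg over 8996 rows; a call is an adjusted p under 0.05. The procedure was tested on simulated data. Overlap with a list means 1 bp or more. Shares have exact binomial intervals. Other steps used Matplotlib 3.10.9, SciPy 1.17.1, pandas 2.3.3, NumPy 2.4.6 and Python 3.11.15.

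All rows assigned to either gene are named, with the nearest genes holding a row (up to 3 a side), the 5 rows most alike to the strongest row of each gene, and the called genes of 4 lists: bHLH factors, photoreceptor transcription factors, ceramide enzymes and retinal dystrophy genes. Itga4 is named for its position. Some called list genes are not reported here. The genes, lists and tests were chosen with earlier results of these data known. Alternatives were the values as deposited, a pseudocount of 0.1, a filter at a mean of 2 RPKM, centred libraries, reads in peaks as the library size, limma-voom, fits of 2 ages, a replicate block and each library left out.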

Additional observations from a re-analysis of the deposited data

How the results depend on the processing

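Depth and scale limit these results. Of 576 alternative values for single peaks, 460 kept their direction and their side of the threshold, 54 lost a call, 19 gained one and 43 changed sign. No difference that had passed the test changed sign. Some settings could not change a difference, only its adjusted p. These were the filter at 2 RPKM, the fits of 2 ages and the omission of a library of an age not compared. The count of kept directions therefore includes many that were fixed in advance. The number of called peaks for P10 minus P4, 3 of 9, was 0 with the values as deposited, 0 with a pseudocount of 0.1, 1 (A) with centred libraries, and 1 (A) with either reads in peaks as the library size or limma-voom, the last 2 chosen after seeing the data. The shares of all rows called in these settings were 6.22, 0.089, 6.14, 2.58 and 12.1%, against 17.1%. The number for P28 minus P10, 4 of 9, was 1 (D) with the values as deposited, 0 with a pseudocount of 0.1, 1 (E) with centred libraries, 0 with reads in peaks, 1 (D) with limma-voom and 7 when only the 2 ages compared were fitted. The shares of all rows were 9.85, 5.27, 12.8, 3.51, 22.1 and 36.1%, against 21.9%. Leaving out 1 library gave 0 to 2 called peaks for P4 minus P2, 0 to 9 for P10 minus P4, 0 to 6 for P28 minus P10 and 0 to 1 for P28 minus P2; the remaining library of that age was assumed to vary like the other ages. Over all alternatives, the limma adjusted p of the called differences ranged for P10 minus P4 from 0.00014 to 0.11 (A), 0.0029 to 0.45 (E) and 0.00012 to 0.42 (F), and for P28 minus P10 from 0.010 to 0.49 (A), 0.0045 to 0.33 (C), 0.0019 to 0.38 (D) and 0.0017 to 0.24 (E). With the replicate block, 0 peaks were called for P10 minus P4 and 0 for P28 minus P10, beside 2.03 and 4.80% of all rows; the numbers pair no samples by label, and deviations of same-numbered libraries correlated by -0.0128 to 0.0853. The block also turned peak D for P10 minus P4 to -0.21. The planned edgeR and TMM alternatives were not run, since the deposited values are RPKM.

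At equal list length, 2 peaks of the locus were in the P4 list, 2 in the P10 list and 0 in the P28 list. Each of these lists then held 13.6% of all rows. Shares per kilobase moved to 13.9% at P10 and 6.91% at P28 for D, and to 17.8, 22.0, 16.3 and 21.6% in order of age for H. Sign changes were as follows, in log2 differences. For P4 minus P2 with centred libraries, A became -0.41, B -0.21, C -0.077 and G -0.047. With reads in peaks they became -0.39, -0.21, -0.19 and -0.089, and I -0.024. With limma-voom A became -0.71, B -0.38 and C -0.20. For P28 minus P2, B became -0.27, -0.16 and -0.16 and E -0.27, -0.077 and -0.25 under the same 3 settings, and I became -0.013 when centred. For P10 minus P4, D became -0.10, -0.24 and -0.33 under these settings. For P28 minus P10, G became 0.21 with reads in peaks and 0.27 with limma-voom, and F 0.12 with limma-voom. With the values as deposited, C and D became 0.32 and 0.28 for P28 minus P2, F 0.11 for P4 minus P2 and I -0.045 for P10 minus P4. Leaving out 1 library, differences ranged for P4 minus P2 from -0.25 to 1.04 for C, -0.37 to 1.54 for E, -1.59 to 0.83 for F, -0.13 to 0.98 for G and -0.28 to 1.30 for I. They ranged from -0.37 to 1.58 for D in P10 minus P4, and for P28 minus P2 from -0.75 to 0.50 for D, -0.26 to 2.16 for F and -0.22 to 1.36 for I. The cause of these changes was not tested.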
